A study of Homo sapiens with 38 samples.

Results

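The first days after withdrawal of the naive culture medium were examined in Shef6, an established human embryonic stem cell line. The data are 8 of the 38 libraries of the series, chosen by their labels: the N2B27 libraries of day 2 (n = 2) and day 3 (n = 2) and the 4 naive libraries of the same experiment. Naive cells of day 0 were kept in PXGL, a medium with the MEK inhibitor PD0325901, the tankyrase inhibitor XAV939, the PKC inhibitor Gö6983 and LIF, on a serum coating (n = 2) or on Geltrex, a basement membrane extract (n = 2), with a ROCK inhibitor in the naive medium for a day after each passage (the condition is labelled PXGLY). All libraries came from 1 line adapted to growth on the serum coating. The cells of days 2 and 3 were replated on Geltrex in N2B27, the basal medium without these additions, with a ROCK inhibitor at plating that was withdrawn a day later. The whole series also followed later days, other media and a second experiment. For each gene the question was whether it had moved from its naive level by day 2 and by day 3, and whether both days gave the same answer.

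Naive pluripotent cells resemble the epiblast of the blastocyst before implantation, and leave that state through a formative phase in which they gain the ability to answer signals for germ layer formation. The passage is called capacitation. PXGL holds it back by blocking MEK, the kinase that activates ERK below FGF receptors, by stabilising AXIN and so lowering WNT signalling, and by blocking PKC, while LIF activates STAT3. Active ERK induces transcription factors such as EGR1, FOS and the ETS factors ETV4 and ETV5, and with them its own inhibitors of the Sprouty, SPRED and DUSP families.

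RNA was measured by QuantSeq, which reads each transcript near its polyadenylated end, and the deposited values are raw gene counts. Totals of the 8 libraries ranged from 4161291 to 5577221 counts. CPM, the unit of all levels, is the count scaled to 1000000 counts a library, and 3 counts, taken as the floor of detection, were worth 0.541 to 0.738 CPM. Of 57133 genes listed, 16674 had enough counts to be tested over the 38 libraries. The naive label held in the 4 naive libraries, where the sum of 7 naive markers (KLF17, DPPA5, DPPA3, SUSD2, KHDC3L, DNMT3L and TFCP2L1) was 1701 to 1885 CPM against 22.8 to 29.4 CPM for 5 primed markers (ZIC2, SALL2, CDH2, SFRP2 and OTX2). At day 2 the naive sum was 1358 to 1546 CPM and the primed sum 128.1 to 147.9 CPM, and at day 3 they were 1471 to 1565 and 185.8 to 215.8 CPM. The 4 N2B27 libraries thus carried most of the naive marker sum together with a primed marker sum above every naive library. The naive sum joined markers that moved in opposite directions. Of the 7, 1 was called higher and 2 lower at day 2, and 2 were called lower at day 3 (calls are defined below). In bulk RNA a change in the number of cells of a kind cannot be told apart from a change in RNA per cell.

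Day 2 replicate 2 stood apart from its partner. Among genes with at least 20 CPM in the higher of both replicates, 124 of 7341 (1.69%) differed more than 2-fold between the day 2 libraries, 100 of them higher in replicate 2 and 24 higher in replicate 1. At day 3 the share was 1.21%, and in the naive pairs 0.291% on serum coating and 0.168% on Geltrex, while it ranged from 0.0136% to 2.52% over all 19 pairs of the series. The day 2 libraries correlated at r = 0.9723 (Pearson, log2 CPM over the genes tested). Day 2 replicate 1 was closest to day 3 replicate 2 (r = 0.9739). Replicate 2, after its own partner, was closest to a library of another medium, replicate 1 of E8 at day 3 (r = 0.969). That library came from the pair with the largest share over 2-fold, 2.52%, and the lowest correlation of the 19 pairs (r = 0.9654). The E8 pairs of day 2 (r = 0.9709) and day 8 (r = 0.9705) also correlated less than the N2B27 pair of day 2. These correlations are across genes of libraries made in 1 experiment and are given as a description.

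Pseudogenes differed between the day 2 replicates more often than other genes. They held 1.655% of the counts in replicate 2 and 1.342% in replicate 1, against 1.195% to 1.34% in the naive libraries and 1.392% and 1.161% at day 3. They were 157 of the 7341 genes with at least 20 CPM but 39 of the 124 that differed more than 2-fold, 37 of these 39 higher in replicate 2. Such pairs occurred elsewhere in the series. In E8, 44 of 169 pseudogenes differed more than 2-fold at day 3, among 186 such genes in all. At day 8 in E8 it was 36 of 160, among 105 such genes. Both E8 libraries of day 2 had higher pseudogene shares, 1.958% and 2.046%. NPM1P27, a copy of the nucleophosmin gene, read 6.8 and 41.3 CPM at day 2 in replicates 1 and 2 and 40.4 and 8.81 CPM at day 3, with 10.04 to 15.2 CPM in naive cells, so that 1 library was high on each day and the other below the naive range. RPL22P16, a ribosomal protein pseudogene, read 9.8 and 34.9 CPM at day 2, 6.4 and 5.01 CPM at day 3 and 5.16 to 13.7 CPM in naive cells. Among annotated coding genes, TMIGD1 (4.2 and 22.3 CPM) and RNASEK (4.2 and 21.4 CPM) were far higher in replicate 2, and in the other direction MRPL39 (38.6 and 10.9 CPM), PROCR (25 and 7.59 CPM) and the homeobox gene HESX1 (21.6 and 6.64 CPM) were far lower. POMZP3, GPR75-ASB3 and MSANTD3-TMEFF1, a fusion of neighbouring genes or read-through transcripts, also differed, and share sequence with other genes so that their counts are uncertain. How far the pseudogene share accounts for any call was not tested, and values with this share as a covariate are given with the alternatives.

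**Figure D1:**
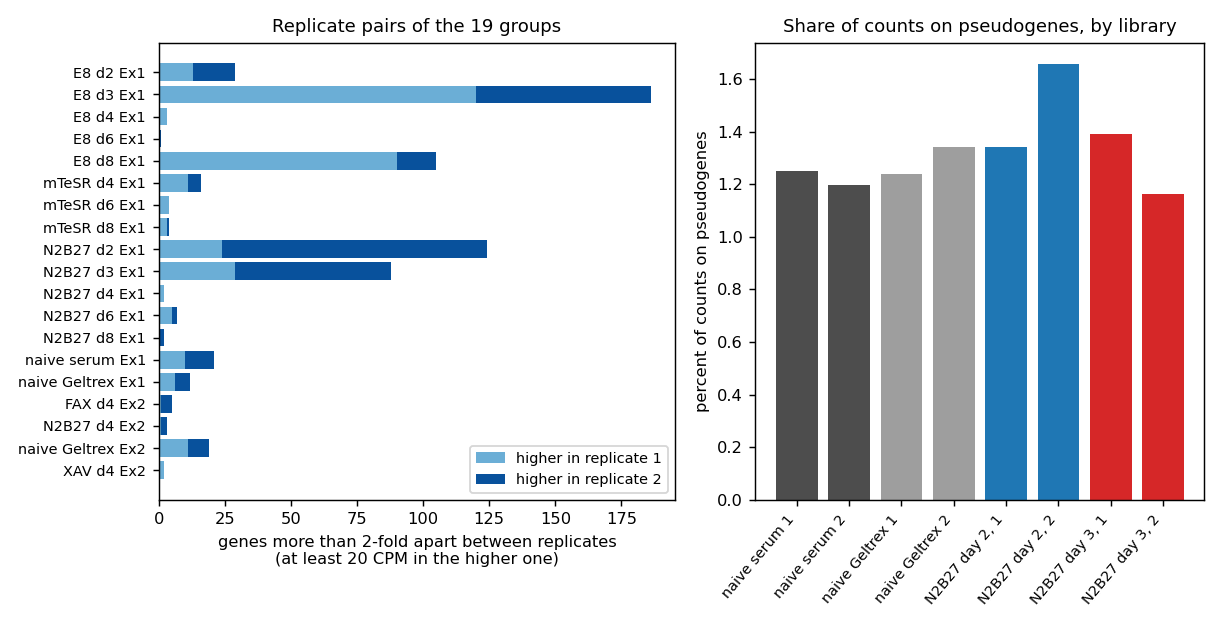
Left, number of genes more than 2-fold apart between both replicates of each of the 19 groups (x axis, genes with at least 20 CPM in the higher replicate), split by the replicate with the higher value. Right, percent of counts on pseudogenes (y axis from 0) in the 8 libraries used here. N2B27 day 2 had 124 such genes, 100 of them higher in replicate 2, which also had the highest pseudogene share of the 8 libraries, 1.655%.

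Compared with the 4 naive libraries, 2460 of 16674 tested genes passed at day 2 and 2527 at day 3. Genes were called at an adjusted p-value below 0.05 with a log2 fold change beyond 1 in either direction, that is a change of more than 2-fold. At day 2, 1537 genes (9.22% of those tested) were higher and 923 (5.54%) lower than in naive cells. At day 3, 1646 (9.87%) were higher and 881 (5.28%) lower. Called in the same direction at both days were 1507 genes, 1031 (6.18%) higher and 476 (2.85%) lower, which is 61.3% of the day 2 calls and 59.6% of the day 3 calls. Both days were compared with the same 4 naive libraries, so that their agreement is not independent. Without sharing, with day 2 set against naive cells on serum coating and day 3 against naive cells on Geltrex, 1323 genes agreed, and 1219 with the coatings exchanged.

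Calls made on 1 day only were examined for their sign on the other. Of 952 genes called at day 2 only, 505 were higher and 447 lower than in naive cells, and 842 had a log2 fold change of the same sign at day 3. Of 1019 genes called at day 3 only, 615 were higher and 404 lower, and 936 had the same sign at day 2. Among 13195 genes called on neither day 9300 had the same sign at both, and the shared naive libraries favour equal signs, so that no agreement is read from these counts. A direct test of day 3 against day 2 called 318 genes higher (1.91% of those tested) and 183 lower (1.1%) at day 3. These included 124 of the genes called at day 2 only and 155 of those called at day 3 only. A single gene, the mitochondrial pseudogene MTATP8P2, was called in opposite directions.

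**Figure D2:**
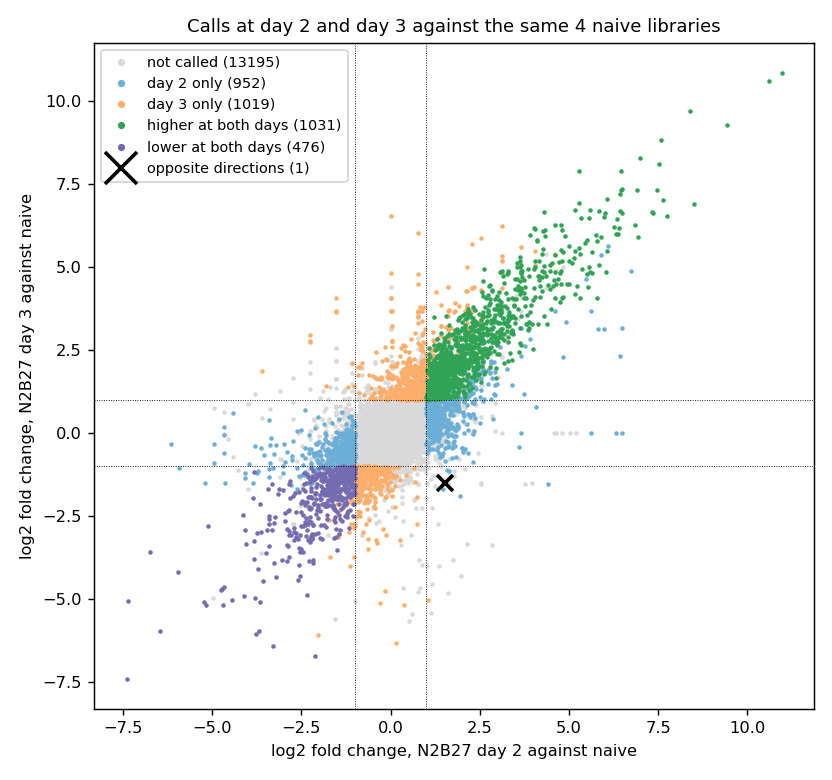
Log2 fold change against the same 4 naive libraries at day 2 (x axis) and day 3 (y axis) for the 16674 genes tested, 1 point a gene, coloured by the days on which it was called; dotted lines mark the fold threshold. The 1507 genes called in the same direction at both days lie in the upper right and lower left corners and 1 gene lies in an opposite corner; fold changes of genes with no counts in a group depend on the prior count of the fit.

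Leaving out 1 library of day 2 tells how much of the day 2 result rested on it. Without replicate 1, 1944 of the 2460 day 2 calls (79%) were made again, and without replicate 2, 1595 (64.8%). Both ways kept 1302 of them, 293 were lost only without replicate 1 and 642 only without replicate 2. Without replicate 2, 1326 genes agreed in direction at both days, 1231 of them among the 1507. With 2 libraries a day, the spread behind each test came from all 38 libraries.

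The genes that rose most at both days came from nothing or nearly nothing. By the rule for naming, these were the 12 genes with the largest rise among 304 higher at both days with at least 20 CPM and no overlap between the naive and the N2B27 libraries. SFRP2, a secreted antagonist of WNT and a primed marker (chr4:153780591-153789083, GRCh38), had no count in any naive library, 61.4 and 50.1 CPM at day 2 and 52.2 and 50.9 CPM at day 3. That is at least 82.8-fold higher at day 2 and at least 76.5-fold higher at day 3, with the floor of 3 counts per library as the naive value. SPRY4, an inhibitor of ERK activation, was likewise at 0 in naive cells and at 42 and 45.1 and 45.5 and 41 CPM, at least 64.7-fold and at least 64.3-fold higher. Neither gene was called between the days.

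THY1, the surface glycoprotein CD90 that marks primed cells (chr11:119415476-119424985), had 2 counts over the 4 naive libraries, 94.6 and 89.5 CPM at day 2 and 79 and 84.1 CPM at day 3. Its ratio to naive cells was 881 at day 2 (95% counting interval 243 to 7287) and 781 at day 3 (215.5 to 6462). PTPRZ1, a receptor tyrosine phosphatase, had 0 to 0.221 CPM in naive cells, 28.8 and 24.4 at day 2 and 63.2 and 69.5 at day 3, and was also called higher at day 3 than at day 2. With 1 naive count, its ratio was 512 at day 2 (95% counting interval 91.05 to 20300) and 1273 at day 3 (228 to 50380). CAV1, the coat protein of caveolae (chr7:116524994-116561179), read 0.885 and 0.873 (serum coating) and 1.12 and 1.08 (Geltrex) CPM in naive cells, 92 and 92.8 at day 2 and 163 and 168 at day 3. Its replicates lay close together on each day, with a log2 fold change of 6.50 ± 0.16 (SE) at day 2 and 7.34 ± 0.15 at day 3.

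CCND2, cyclin D2 of the G1 phase (chr12:4269771-4305353), was the most abundant gene of the 12. It read 0.885 and 4.37 (serum coating) and 3.59 and 1.62 (Geltrex) CPM in naive cells, 264 and 196 at day 2 and 649.9 and 571 at day 3, log2 fold changes of 6.47 ± 0.20 and 7.88 ± 0.19. ABCG2, an efflux transporter, read 0.361 to 0.898 CPM in naive cells, 58.8 and 57.2 at day 2 and 108 and 101 at day 3. In CAV1, CCND2 and ABCG2 both day 3 libraries lay above both day 2 libraries, and the direct test called the difference for CCND2. PTPRD, another receptor phosphatase (0.224 to 1.33 CPM in naive cells, 78.8 and 84.5 at day 2, 85.4 and 95.7 at day 3), and PNMA2 (0.18 to 0.885, 42.8 and 33.2 and 40.6 and 32.8 CPM) were not called between the days. COL1A2, a fibrillar collagen chain, and DUSP4 and DUSP6, phosphatases of ERK, complete the 12 and are described with their groups.

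The genes that fell most at both days had naive means of at least 24.2 CPM and, apart from FAM151A, day 2 means of at most 4.55 CPM. IRX3, a homeobox factor (chr16:54283304-54286787), read 73 and 98.9 (serum coating) and 78.3 and 95.8 (Geltrex) CPM in naive cells, 2.8 and 1.66 at day 2 and 2.46 and 2.6 at day 3, log2 fold changes of -5.23 ± 0.29 and -5.08 ± 0.28. SPIC, an ETS family factor of naive cells, read 49.97 to 57 CPM in naive cells, 2.6 and 1.42 at day 2 and 2.21 and 0.801 at day 3, log2 fold changes of -4.69 ± 0.30 and -5.19 ± 0.32.

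BMP2, a BMP ligand (chr20:6767686-6780246), read 55.3 and 53.7 (serum coating) and 43.1 and 39.5 (Geltrex) CPM in naive cells, 2.2 and 2.14 at day 2 and 1.48 and 1.4 at day 3, log2 fold changes of -4.44 ± 0.29 and -5.03 ± 0.31. REEP1, which shapes the endoplasmic reticulum, went from 57 to 63.7 CPM to 3.2 and 3.8 and 1.97 and 2.0 CPM. In all of these the lowest naive library lay far above the highest N2B27 library, where the rule for naming asked only for no overlap. FAM151A had the highest naive level of the 11 described, 216 and 216 (serum coating) and 176 and 108 (Geltrex) CPM, with 19 and 19.9 CPM at day 2 and 10.6 and 7.41 CPM at day 3. The naive libraries on Geltrex were the lower ones, and day 3 was called lower than day 2 (log2 difference -1.13 ± 0.31), a call lost without day 2 replicate 2 or without day 3 replicate 2. GDPD1, LGALS3 (galectin 3, a glycan-binding protein), DMBX1, PLEKHG1, LIPH and MEIOB, a meiotic recombination gene, were at 24.2 to 32.9 CPM in the naive mean and at 1.55 to 4.55 CPM at day 2.

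**Figure D3:**
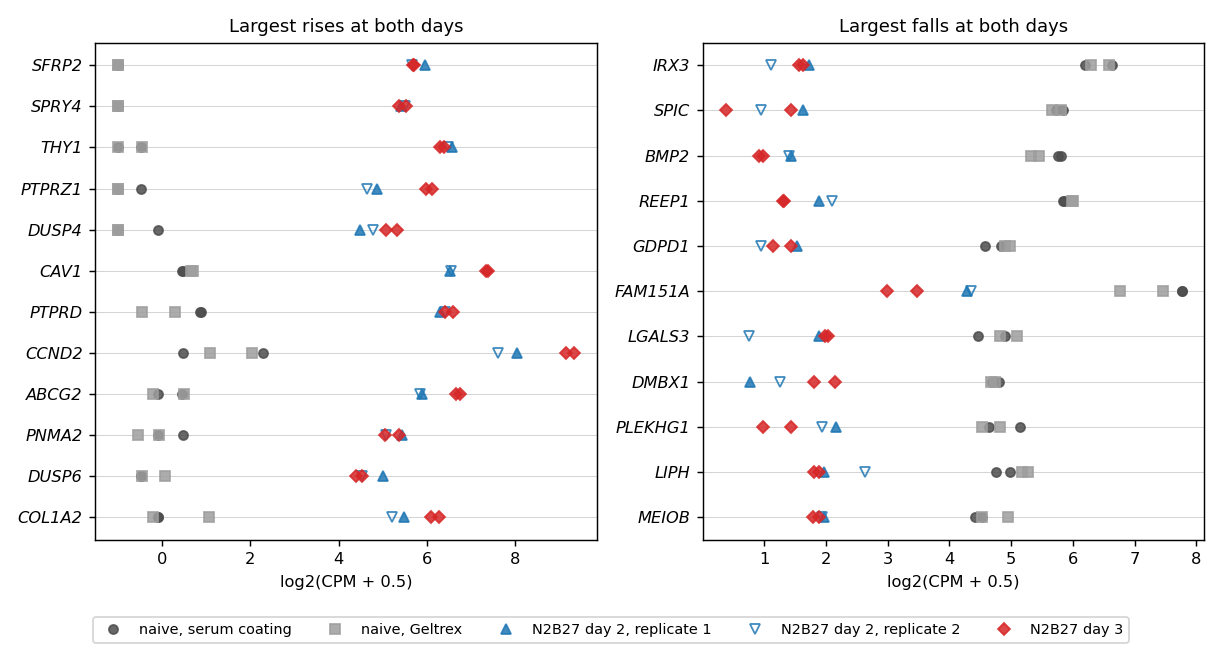
Level of the 12 genes with the largest rise (left) and 11 of the 12 with the largest fall (right) at both days, as log2(CPM + 0.5) on the x axis, 1 symbol a library; CPM is the count scaled to 1000000 counts a library. SFRP2 and SPRY4 lie at 0 CPM in all 4 naive libraries. The rule for naming admitted only genes in which naive and N2B27 libraries do not overlap.

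The lists of genes that ERK activity controls are given first. Like all lists they were chosen with earlier results of these data known, and their shares are a description. Of 12 feedback inhibitors of ERK tested, 10 were higher at day 2 and 9 at day 3, where 9.22% and 9.87% of all genes were. None was lower, where 5.54% and 5.28% of all genes were, and the median log2 fold change was 3.16 at day 2 and 3.28 at day 3, against 0.03 and 0.00 over all genes tested. The Sprouty proteins act between receptors and RAF. SPRY2 read 10.8 and 9.17 (serum coating) and 7.18 and 7.04 (Geltrex) CPM in naive cells, 88.2 and 89.9 at day 2 and 67.7 and 70.1 at day 3, log2 fold changes of 3.38 ± 0.15 and 3.01 ± 0.15. SPRY1 was low throughout, at 0.673 to 0.902 CPM in naive cells, 7.0 and 6.17 at day 2 and 10.6 and 9.61 at day 3.

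RNA of SPRED1 and SPRED2, which encode proteins that hold RAS and RAF inactive, rose as well. SPRED1 read 1.55 and 3.06 (serum coating) and 2.69 and 3.79 (Geltrex) CPM in naive cells, 59.6 and 51.7 at day 2 and 70.9 and 92.5 at day 3, log2 fold changes of 4.29 ± 0.16 and 4.85 ± 0.15. SPRED2 read 4.49 to 7.53 CPM in naive cells, 48.8 and 37 at day 2 and 34.9 and 46.1 at day 3. All 4 N2B27 libraries were above all 4 naive ones for both genes.

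Among the phosphatases that remove the activating phosphates of ERK, DUSP5 was the most abundant. It read 2.66 and 3.49 (serum coating) and 3.82 and 2.53 (Geltrex) CPM in naive cells, 131 and 112 at day 2 and 142 and 157 at day 3, log2 fold changes of 5.28 ± 0.13 and 5.58 ± 0.13. DUSP6 read 0.221 and 0.218 (serum coating) and 0.224 and 0.541 (Geltrex) CPM in naive cells, 31.6 and 22.5 at day 2 and 20.7 and 22.6 at day 3, and its naive libraries held 6 counts together, a ratio of 87.4 at day 2 (95% counting interval 39.6 to 240.4) and 69.2 at day 3 (31.2 to 191). DUSP4, with 2 counts over the naive libraries, read 21.8 and 26.8 at day 2 and 33.2 and 39.4 at day 3. DUSP7 (15.3 to 21 CPM in naive cells, 28.6 and 14.9 and 20.7 and 20.2 later) and DUSP10 did not pass the test on either day. IL17RD, a membrane antagonist of FGF receptors, had the highest naive level of the list, 32.1 to 48.7 CPM, and read 112 and 97.3 at day 2 and 127 and 129.8 at day 3. SPHK1, a lipid kinase, was called at day 2 only, at 3.0 and 5.7 CPM against 1.8 to 2.21 CPM in naive cells, and the call was lost without day 2 replicate 2 and in other alternatives.

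Of 22 genes induced through ERK, 13 (59.1%) were higher and 2 (9.09%) lower at day 2 and 15 (68.2%) higher and 1 (4.55%) lower at day 3, with medians of 1.90 and 2.36. All genes together had 9.22% and 9.87% higher and 5.54% and 5.28% lower. The PEA3 group of ETS factors, ETV1, ETV4 and ETV5, rose on both days. ETV1 read 5.53 and 5.9 (serum coating) and 7.18 and 5.59 (Geltrex) CPM in naive cells, 119 and 102 at day 2 and 110.2 and 95.9 at day 3. ETV4 read 6.64 and 5.24 (serum coating) and 6.73 and 5.05 (Geltrex) CPM in naive cells, 105 and 164 at day 2 and 67.7 and 89.5 at day 3. ETV5 read 1.33 and 0.873 (serum coating) and 1.35 and 1.8 (Geltrex) CPM in naive cells, 40.4 and 38.7 at day 2 and 55.4 and 65.7 at day 3. Their log2 fold changes lay between 4.19 and 4.83 at day 2 and between 3.74 and 5.45 at day 3, and no N2B27 library overlapped a naive one.

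The immediate early factors differed among themselves. EGR1, a zinc finger factor, was higher at day 2 (9.0 and 10.2 CPM) than at day 3 (3.69 and 3.2 CPM), from 0.449 to 0.664 CPM in naive cells, and the difference between the days was called (log2 difference -1.47 ± 0.30). Its ratio to the 11 naive counts was 16.6 at day 2 (95% counting interval 8.83 to 34.4) and 5.94 at day 3 (2.91 to 13.1). FOS, a subunit of AP-1, read 1.11 and 0.873 (serum coating) and 0.224 and 0.541 (Geltrex) CPM in naive cells, 46.4 and 23.3 at day 2 and 19.4 and 20.6 at day 3, so that day 2 replicate 1 was the highest library. JUNB, also of AP-1, fell, from 16.4 and 17.7 (serum coating) and 15.7 and 12.8 (Geltrex) CPM to 3.2 and 2.85 at day 2 and 6.64 and 6.61 at day 3, log2 fold changes of -2.35 ± 0.27 and -1.23 ± 0.23. JUN itself did not pass the test (20.2 to 34.1 CPM in naive cells, 20.01 and 20.2 at day 2, 29 and 37.2 at day 3). MYC, a growth regulator, read 3.32 and 3.06 (serum coating) and 1.8 and 1.62 (Geltrex) CPM in naive cells, 26.6 and 15.9 at day 2 and 32.5 and 37 at day 3, log2 fold changes of 3.14 ± 0.25 and 3.84 ± 0.24. PHLDA1 (6.96 to 8.85 CPM in naive cells, 98.2 and 85 at day 2, 157 and 177 at day 3) and CCND1, cyclin D1 (3.49 to 6.49, 21.2 and 16.6 and 49.7 and 61.5 CPM), were higher on both days, and CCND1 was higher at day 3 than at day 2 (log2 difference 1.55 ± 0.20).

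SRF, the factor that binds CArG boxes, went the other way at day 2. It read 127 and 237 (serum coating) and 253 and 295 (Geltrex) CPM in naive cells, 123 and 91.6 at day 2 and 210.4 and 250.1 at day 3. Naive replicate 1 on serum coating lay just above the day 2 libraries, and the day 2 call (log2 fold change -1.09 ± 0.24) was lost without day 2 replicate 2, without naive replicate 2 on Geltrex, against naive cells on serum coating alone, and with the pseudogene share as a covariate. At day 3 its libraries lay within the naive range. The proximal promoters of EGR1 and SRF are shown because both hold a pair of CArG boxes while the genes were called in opposite directions at day 2. These are the 120 bases before the RefSeq transcription start (GRCh38.p14, plus strand), EGR1 at chr5:138465359-138465478 and SRF at chr6:43171149-43171268, 5′ to 3′, with the CArG boxes in capitals.
EGR1: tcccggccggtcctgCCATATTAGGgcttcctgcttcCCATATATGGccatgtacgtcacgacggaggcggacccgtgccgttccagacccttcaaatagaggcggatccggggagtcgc
SRF: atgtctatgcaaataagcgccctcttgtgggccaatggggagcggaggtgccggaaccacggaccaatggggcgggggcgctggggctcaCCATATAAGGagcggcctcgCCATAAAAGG
The boxes lie 105 to 96 and 83 to 74 bases before the start of EGR1, and 30 to 21 and 10 to 1 bases before that of SRF. Windows of 300 bases, 250 before and 50 after each RefSeq start, were searched on both strands, some genes having several windows. They covered 13 of the 24 listed ERK-induced genes and 11 of the 13 listed feedback inhibitors, and the other members were not searched. Of 23 windows of 13 ERK-induced genes, 3 held a CArG box (1 each of EGR1, EGR2 and SRF, 13%), against 1.29% of all 35116 windows. EGR2 did not have enough counts to be tested. The ETS core CCGGAAG was in 1 of these 23 windows and in 1 of 20 windows of 11 feedback inhibitors (10.3% of all), the AP-1 site TGANTCA in 1 and 4 (7.71% of all) and the TEAD site GGAATG in 2 and 2 (14% of all). A match of letters is a description and not a measured binding site.

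**Figure D4:**
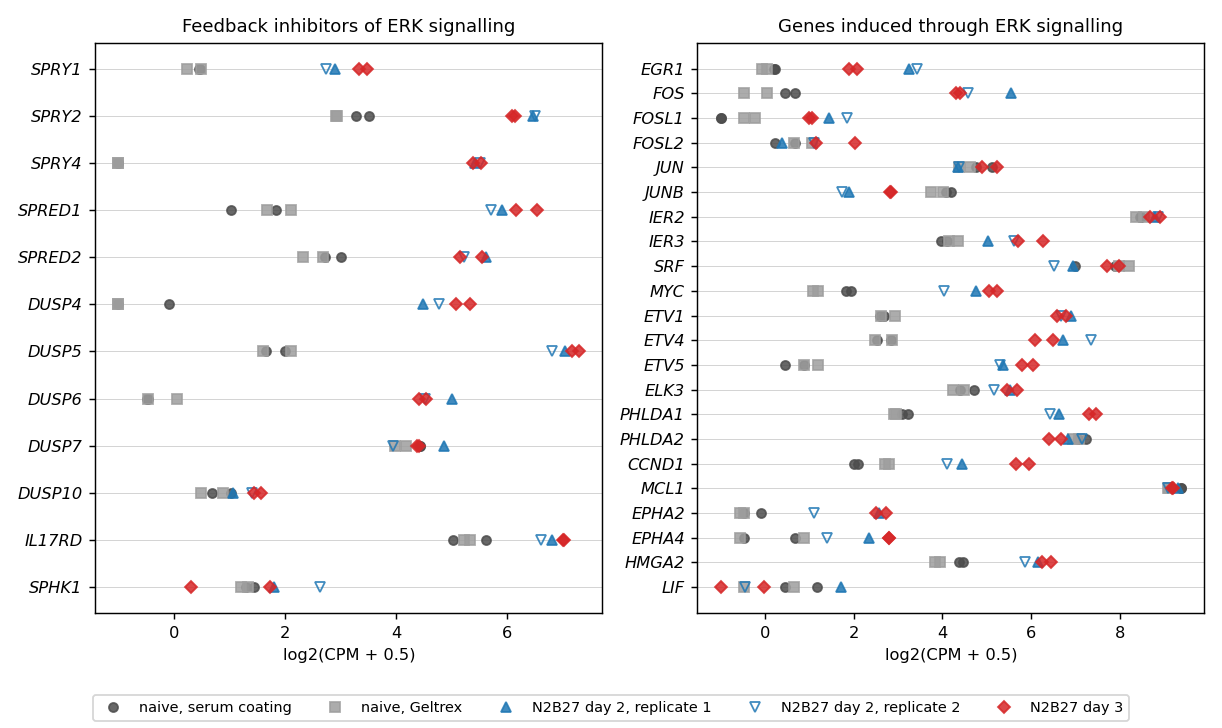
Level of the 12 feedback inhibitors of ERK (left) and the 22 ERK-induced genes (right) that were tested, as log2(CPM + 0.5) on the x axis, 1 symbol a library. For most genes the 4 N2B27 libraries lie to the right of the 4 naive ones; JUNB lies to the left, and SRF reads 123 and 91.6 CPM at day 2 and 210.4 and 250.1 CPM at day 3.

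FGF ligands and receptors moved unequally. FGF2, the ligand used to maintain primed cells, read 27.7 and 27.5 (serum coating) and 27.2 and 25.6 (Geltrex) CPM in naive cells, 179.7 and 169 at day 2 and 296 and 263 at day 3, log2 fold changes of 2.69 ± 0.09 and 3.37 ± 0.09. FGF4, the ligand that naive cells make, read 297 and 364 (serum coating) and 389.9 and 379.6 (Geltrex) CPM in naive cells, 176 and 136 at day 2 and 212 and 209 at day 3, and was called lower at day 2 only (-1.20 ± 0.14, and -0.77 ± 0.13 at day 3). FGF19 rose from 0 to 0.902 CPM to 6.0 and 5.7 at day 2 and 21.4 and 16.8 at day 3. Of the receptors, FGFR1 read 89.9 and 76.2 (serum coating) and 84.8 and 73.6 (Geltrex) CPM in naive cells, 477 and 619.8 at day 2 and 398 and 476 at day 3, log2 fold changes of 2.76 ± 0.10 and 2.43 ± 0.10, while FGFR2, FGFR3 and FGFR4 were not called. In all, 3 of 10 members tested (30%) were higher on both days and 1 (10%), FGF4, lower at day 2, beside 9.22% and 9.87% higher and 5.54% lower over all genes.

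Most primed and formative markers were higher. Of 27 tested, 20 (74.1%) were higher and 1 (3.7%) lower at day 2, and 23 (85.2%) higher and 1 lower at day 3, with medians of 2.58 and 3.0. The all-gene shares were 9.22% and 9.87% higher and 5.54% and 5.28% lower. Among the transcription factors, ZIC2 (chr13:99981784-99986765) read 0.885 and 0.873 (serum coating) and 0.898 and 0.722 (Geltrex) CPM in naive cells, 29.8 and 21.1 at day 2 and 50.2 and 54.9 at day 3, log2 fold changes of 4.89 ± 0.25 and 5.92 ± 0.22, and was called higher at day 3 than at day 2, a call lost without day 2 replicate 2. SOX11 read 1.55 and 1.75 (serum coating) and 0.673 and 0.902 (Geltrex) CPM in naive cells, 45.8 and 50.3 at day 2 and 158 and 140.2 at day 3, and was likewise called higher at day 3 than at day 2 (log2 difference 1.64 ± 0.15). SALL2 read 15.9 to 22.4 CPM in naive cells, 45.6 and 49.4 at day 2 and 70.1 and 94.3 at day 3. HES1, a target of Notch, read 0.437 to 1.77 CPM in naive cells, 50.6 and 29.4 at day 2 and 44.3 and 42.2 at day 3. OTX2, a formative factor, was called at day 3 only, at 9.84 and 14 CPM against 4.21 to 6.13 CPM in naive cells.

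Other members of the list are given next. PODXL, a sialomucin, read 20.6 and 23.8 (serum coating) and 26.7 and 25.6 (Geltrex) CPM in naive cells, 365 and 300.0 at day 2 and 487 and 526 at day 3, log2 fold changes of 3.78 ± 0.12 and 4.39 ± 0.12. CD24, a surface glycoprotein, read 118 and 106 (serum coating) and 129.5 and 109 (Geltrex) CPM in naive cells, 632 and 664 at day 2 and 1014 and 841 at day 3, log2 fold changes of 2.49 ± 0.09 and 3.0 ± 0.09. USP44, a deubiquitinase, read 2.88 and 7.42 (serum coating) and 7.41 and 9.02 (Geltrex) CPM in naive cells, 182 and 172 at day 2 and 152 and 184 at day 3. The WNT receptor FZD7 (0.18 to 0.664 CPM in naive cells) read 23.2 and 15.9 at day 2 and 16.2 and 18.4 at day 3. SFRP1, a WNT antagonist like SFRP2, was the member that fell, from 50.2 and 47.2 (serum coating) and 68 and 58.5 (Geltrex) CPM to 17.4 and 14.5 at day 2 and 5.91 and 9.61 at day 3. CDH2, N-cadherin, was low throughout and called at day 3 only (3.44 and 1.8 CPM against 0.18 to 1.77 CPM in naive cells). VIM, vimentin, had 3 counts over the naive libraries and reached 5.66 and 8.61 CPM at day 3, a ratio of 46.4 (95% counting interval 15.2 to 231).

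Of 19 naive transcription factors tested, 4 (21.1%) were higher and 4 lower at day 2, and 2 (10.5%) higher and 4 lower at day 3. Over all genes 9.22% and 9.87% were higher and 5.54% and 5.28% lower. The list had medians of -0.34 and 0.04. TBX3, a T-box factor, read 137 and 131 (serum coating) and 129.7 and 123 (Geltrex) CPM in naive cells, 27 and 31.6 at day 2 and 47.5 and 49.7 at day 3, log2 fold changes of -2.15 ± 0.16 and -1.42 ± 0.15. KLF4 read 175 and 151 (serum coating) and 109 and 110.4 (Geltrex) CPM in naive cells, 91.6 and 63.4 at day 2 and 46.5 and 42.4 at day 3, and was called lower at day 3 only (-1.62 ± 0.18). KLF5 read 210.3 to 256 CPM in naive cells, 106 and 113 at day 2 and 139 and 129.8 at day 3, and was called lower at day 2 only. TFCP2L1 was lower in all 4 N2B27 libraries (210.1 and 204 and 171 and 175 CPM against 230.0 to 277) without reaching the fold threshold.

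KLF17, a factor specific to human naive cells, was among the genes on which the days disagreed. It read 54.9 and 97.4 (serum coating) and 108 and 126 (Geltrex) CPM in naive cells, 56.2 and 41.1 at day 2 and 109.8 and 89.5 at day 3. It was not called against naive cells on either day, day 3 lay within the naive range with day 2 replicate 2 below it, and the direct test called day 3 higher than day 2 (log2 difference 1.03 ± 0.27, adjusted p = 0.014 in edgeR's quasi-likelihood test). That call was lost without day 2 replicate 2 (log2 difference 0.81), without day 3 replicate 1 (0.86), and in a fit of the 8 libraries alone (1.02). It was also lost with 6 naive libraries of both experiments (1.03) and with the pseudogene share as a covariate (0.93). TFAP2C (321 to 465 CPM in naive cells, 298 and 279 at day 2, 428 and 514 at day 3) and VENTX were not called on either day. DPPA2, a chromatin regulator, was higher, at 23.6 to 37 CPM in naive cells, 86.2 and 57 at day 2 and 96.7 and 115 at day 3.

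Of 25 naive effectors tested, 1 (4%) was higher and 8 (32%) lower at day 2 and 7 (28%) were lower at day 3, with medians of -0.30 and -0.71 (-0.56 at day 3 with floor-level genes put at their bound). Of all genes 9.22% were higher at day 2, and 5.54% and 5.28% lower at days 2 and 3. DNMT3L, a cofactor of DNA methylation, read 359 and 362 (serum coating) and 365 and 337 (Geltrex) CPM in naive cells, 161 and 159 at day 2 and 72.6 and 118 at day 3, log2 fold changes of -1.15 ± 0.12 and -1.89 ± 0.13. Its day 2 call was lost with the pseudogene share as a covariate, where the log2 fold change was -0.99, just short of the fold threshold. OLAH, a fatty acid thioesterase, went from 27.4 to 37.9 CPM to 4.0 and 10.9 at day 2 and 4.92 and 2.8 at day 3. ALPG, an alkaline phosphatase with a close paralogue in ALPP so that reads may be shared, went from 232 to 296 CPM to 83.6 and 82.8 and 51.4 and 82.1 CPM. DPPA5 read 404 and 481 (serum coating) and 430.5 and 448 (Geltrex) CPM in naive cells, 271 and 163 at day 2 and 164 and 242 at day 3, and its day 2 call was lost without replicate 2 of that day. SUSD2, the surface marker of naive cells, was the member that rose, from 124 and 97.6 (serum coating) and 82.1 and 82.4 (Geltrex) CPM to 218 and 288 at day 2 (1.39 ± 0.14), and read 159 and 149.8 at day 3. DPPA3 (254 to 304 CPM in naive cells, 366 and 276 at day 2, 406 and 395 at day 3), KHDC3L and ZFP42 were not called.

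Of the factors shared by all pluripotent states, NANOG and SOX2 stayed at high levels. NANOG read 946 and 1163 (serum coating) and 1105 and 1129 (Geltrex) CPM in naive cells, 1150.5 and 1025 at day 2 and 1310.1 and 1249 at day 3, and SOX2 read 258 to 274, 358 and 370.0 and 476 and 366 CPM. Neither was called on either day. POU5F1, which encodes OCT4 (chr6:31164337-31180731), read 560.5 and 389.5 (serum coating) and 363 and 365 (Geltrex) CPM in naive cells, 555 and 1203 at day 2 and 345 and 446 at day 3. Its day 2 call rested on replicate 2, which alone lay above the naive range, and was lost without that library; this gene has many pseudogene copies that can take or give reads. L1TD1, an RNA-binding protein, was higher on both days, at 476 to 572 CPM in naive cells, 1617 and 1472 at day 2 and 2055 and 1752 at day 3. LIN28A read 218 to 257, 468 and 522 and 466 and 504 CPM, near the fold threshold, so that its call depended on the setting. Of the 11 members, 4 (36.4%) were higher at day 2 (2 without day 2 replicate 2), 2 (18.2%) at day 3 and none lower, where 9.22% and 9.87% of all genes were higher.

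Of 22 LIF and STAT3 genes, 4 (18.2%) were higher and 3 (13.6%) lower on each day, with medians of -0.13 and -0.15. Over all genes 9.22% and 9.87% were higher and 5.54% and 5.28% lower. STAT3 itself read 23.5 and 15.7 (serum coating) and 17.5 and 15 (Geltrex) CPM in naive cells, 40.2 and 47.5 at day 2 and 40.6 and 38.2 at day 3, log2 fold changes of 1.29 ± 0.16 and 1.14 ± 0.16. SOCS3, the inhibitor of JAK that STAT3 induces, read 0.437 to 1.8 CPM in naive cells, 4.8 and 3.32 at day 2 and 8.12 and 10.2 at day 3, and so was higher, whereas BCL3 fell from 19.5 to 31.9 CPM to 10.00 and 9.97 and 3.2 and 9.01 CPM. PIM1, a kinase target, was called higher at day 3 only (93.1 to 126, 221 and 151 and 264 and 276 CPM). The receptors LIFR and IL6ST and the kinases JAK1 and JAK2 were not called.

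Among WNT targets 3 of 18 (16.7%) were higher and 1 (5.56%) lower on each day, beside 9.22% and 9.87% higher over all genes and a near equal 5.54% and 5.28% lower. The lower one at day 2, APCDD1, was not called without day 2 replicate 2. AXIN2, the feedback target of WNT and the substrate of tankyrase, read 55.6 and 41 (serum coating) and 35.7 and 34.1 (Geltrex) CPM in naive cells, 49.6 and 31.6 at day 2 and 68.2 and 54.3 at day 3, and was not called on either day. SP5, a WNT target that represses others, read 0.898 to 3.06 CPM in naive cells, 5.4 and 3.56 at day 2 and 6.4 and 9.01 at day 3. SP5, SPRY4 and CCND1 were the members that rose on both days, of which SPRY4 and CCND1 also belong to the ERK lists. LEF1, LGR5 and DKK1 were at or near the floor.

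Of 23 Nodal and Activin genes, 3 were higher and 3 lower at day 2, 13% in each direction where 9.22% and 5.54% of all genes were, and 2 (8.7%) were higher and 3 lower at day 3, beside 9.87% and 5.28%. Without day 2 replicate 2 the calls of INHBA and INHBE, inhibin beta chains, were lost and 1 gene was higher at day 2. LEFTY2, a Nodal inhibitor and target, read 73.5 and 98.7 (serum coating) and 121 and 121 (Geltrex) CPM in naive cells, 14 and 6.41 at day 2 and 34.5 and 37.6 at day 3, log2 fold changes of -3.31 ± 0.27 and -1.52 ± 0.23. LEFTY1 read 59.98 and 65.9 (serum coating) and 86.6 and 77.2 (Geltrex) CPM in naive cells, 56.6 and 38.4 at day 2 and 89.3 and 131 at day 3. Both were lowest at day 2 and differed between the days, the call for LEFTY1 being lost without day 2 replicate 2. NODAL, the ligand, was also lowest at day 2 (154 to 218 CPM in naive cells, 124 and 78.3 at day 2, 163 and 197 at day 3) without being called. PMEPA1, another target, fell from 147 to 157 CPM to 43.8 and 50.8 and 64.7 and 60.9 CPM. SMAD7, the inhibitory SMAD, rose from 17 to 18.9 CPM to 50.4 and 46.5 and 52.4 and 46.7 CPM.

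In the BMP list 6 of 18 (33.3%) were higher and 2 (11.1%) lower at day 2 (1 lower without day 2 replicate 2), and 7 (38.9%) higher and 1 (5.56%) lower at day 3. Among all genes the shares were 9.22% and 9.87% higher and 5.54% and 5.28% lower, so that the lower share at day 3 was near that of all genes. Against the fall of BMP2, the ligand BMP4 read 10.6 and 14 (serum coating) and 13.2 and 12.4 (Geltrex) CPM in naive cells, 7.8 and 9.49 at day 2 and 34.9 and 29.2 at day 3, higher at day 3 only (1.34 ± 0.15), and BMP7 rose from 1.08 to 2.24 CPM to 10.00 and 9.02 and 11.6 and 15.2 CPM. Of the ID targets, ID3 read 1.11 and 1.31 (serum coating) and 1.57 and 1.62 (Geltrex) CPM in naive cells, 27.6 and 18.7 at day 2 and 39.4 and 49.3 at day 3, log2 fold changes of 4.02 ± 0.24 and 4.95 ± 0.22. ID2 was not called against naive cells on either day but was higher at day 3 (17.7 and 18 CPM) than at day 2 (9.2 and 6.41 CPM), a call lost without day 2 replicate 2. SMAD6, an inhibitor that BMP induces, went from 2.4 to 4.04 CPM to 8.4 and 9.73 and 16 and 18.6 CPM.

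Genes of attachment and of the actin cytoskeleton form 3 lists. Over all genes 9.22% and 9.87% were higher and 5.54% and 5.28% lower at days 2 and 3. Of 27 YAP and TEAD targets tested, 13 (48.1%) were higher and 1 lower at day 2, and 15 (55.6%) higher and none lower at day 3, with medians of 0.83 and 1.90. AMOTL2, a YAP inhibitor, read 8.63 and 5.68 (serum coating) and 3.82 and 5.23 (Geltrex) CPM in naive cells, 115 and 113 at day 2 and 229 and 153 at day 3, log2 fold changes of 4.29 ± 0.22 and 5.03 ± 0.22. CTGF, the matricellular protein CCN2, read 10.6 and 7.86 (serum coating) and 7.86 and 11.4 (Geltrex) CPM in naive cells, 73.2 and 48.9 at day 2 and 89.3 and 99.9 at day 3. CYR61 (CCN1) read 11.1 and 13.5 (serum coating) and 12.1 and 12.6 (Geltrex) CPM in naive cells, 49.2 and 34.9 at day 2 and 77.5 and 99.5 at day 3, and differed between the days, a call lost without day 2 replicate 2. CCDC80 rose from 88.3 to 106 CPM to 359.7 and 449 and 473 and 427 CPM, while YAP1 and WWTR1, which encode YAP and TAZ, were not called.

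Of 25 actin genes and targets of SRF with its cofactor MRTF, 12 (48%) were higher at day 2 and 13 (52%) at day 3, and none was lower. TAGLN, an actin-binding protein, read 1.77 and 1.75 (serum coating) and 1.12 and 0.902 (Geltrex) CPM in naive cells, 33 and 43 at day 2 and 32.5 and 29.8 at day 3, log2 fold changes of 4.77 ± 0.25 and 4.48 ± 0.26. ACTN1, an actin crosslinker, read 108 to 124 CPM in naive cells, 363 and 419 at day 2 and 330.2 and 352 at day 3, and CNN2, a calponin, 20.6 to 26.5, 94.2 and 139.5 and 131 and 116 CPM. FLNA, filamin A, read 65.9 to 137 CPM in naive cells and 224 and 486 at day 2, where replicate 2 was the highest of all, and 177 and 189 at day 3. ACTB and ACTG1 were not called.

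Of 43 genes of adhesion and matrix, 15 (34.9%) were higher and 1 lower at day 2 (none lower without day 2 replicate 2), and 13 (30.2%) higher and none lower at day 3. ITGB1, the common integrin beta chain, read 62.6 and 67.7 (serum coating) and 86 and 77.2 (Geltrex) CPM in naive cells, 161 and 203 at day 2 and 201 and 189 at day 3, log2 fold changes of 1.31 ± 0.10 and 1.41 ± 0.10. LAMB1, a laminin chain, rose from 28.6 to 43.5 CPM to 124 and 112 and 108 and 99.1 CPM, and NID1, which links laminin to collagen, from 3.76 to 4.51 CPM to 35.4 and 29.2 and 36.9 and 25.4 CPM. CDH3, P-cadherin, rose from 60.7 to 72.5 CPM to 164 and 190.3 and 129 and 190.0 CPM, whereas CDH1, E-cadherin, was lower in all 4 N2B27 libraries (408 and 378 and 277 and 377 CPM against 604 to 690.0) and not called. Among 8 keratins and other intermediate filament genes, KRT18 read 19.5 and 18.1 (serum coating) and 23.1 and 20.03 (Geltrex) CPM in naive cells, 442 and 510.2 at day 2 and 396 and 472 at day 3 and its partner KRT8 17.7 to 28.8, 203 and 223 and 157 and 131 CPM, and both rose. NES, nestin, also rose, and 3 of the 8 (37.5%) were higher at day 2 and 5 (62.5%) at day 3, again beside 9.22% and 9.87% of all genes.

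Most of the 14 DNA methylation genes were not called. DNMT3B, a de novo methyltransferase (chr20:32762385-32809359), read 331 and 308 (serum coating) and 280.1 and 250.1 (Geltrex) CPM in naive cells, 1530.4 and 1821 at day 2 and 1426 and 1442 at day 3, log2 fold changes of 2.52 ± 0.09 and 2.30 ± 0.09. HELLS, a remodeller needed for methylation, rose from 434 to 505 CPM to 1032 and 1145 and 1351 and 1057 CPM. TET2, which oxidises methylcytosine, read 57.1 and 46.1 (serum coating) and 31.2 and 34.8 (Geltrex) CPM in naive cells, 6.6 and 8.78 at day 2 and 7.14 and 5.01 at day 3, log2 fold changes of -2.46 ± 0.25 and -2.81 ± 0.26. DNMT1, DNMT3A, UHRF1 and TET1 were not called, and of the 14 members 2 (14.3%) were higher and 2 lower at day 2 and 3 (21.4%) higher and 2 lower at day 3. The shares over all genes were 9.22% and 9.87% higher and 5.54% and 5.28% lower. In the Polycomb list, JARID2 read 259 and 272 (serum coating) and 279 and 247 (Geltrex) CPM in naive cells, 995 and 1061 at day 2 and 1246 and 1228 at day 3, log2 fold changes of 1.96 ± 0.07 and 2.23 ± 0.07, while the core subunits EZH2, EED and SUZ12 were not called.

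Of 24 glycolysis genes, 4 (16.7%) were higher and 2 lower at day 2 and 7 (29.2%) higher and 1 lower at day 3, where 9.22% and 9.87% of all genes were higher and 5.54% and 5.28% lower. Without day 2 replicate 2, 1 was lower at day 2. HK1, a hexokinase, read 18.4 and 19.2 (serum coating) and 24.2 and 20.4 (Geltrex) CPM in naive cells, 117 and 167 at day 2 and 152 and 209 at day 3, and the glucose transporter SLC2A1 46.9 to 61.5, 182 and 162 and 185 and 255 CPM. The enolases moved in opposite directions, with ENO1 rising from 434 to 513 CPM to 1130.2 and 1328 and 1162 and 1157 CPM and ENO2 falling from 90.3 to 117 CPM to 24 and 25.4 and 30.3 and 31.2 CPM. PFKFB3, which makes the activator of phosphofructokinase, was higher at day 3 only, at 6.86 to 8.98 CPM in naive cells, 15 and 12.1 at day 2 and 40.1 and 56.7 at day 3. Of 15 cytochrome c oxidase genes 1 (6.67%, near the 5.54% of all genes), COX17, was lower at day 2, a call lost without day 2 replicate 2, and none was called at day 3, with medians of -0.42 and -0.46.

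The remaining lists are read against the shares over all genes, 9.22% and 9.87% higher and 5.54% and 5.28% lower at days 2 and 3. Sterol synthesis had 2 of 25 (8%) higher on each day and 1 lower at day 2, PMVK, which was not called without day 2 replicate 2. Fatty acid synthesis had 1 of 13 higher on each day, the desaturases FADS2 at day 2 and FADS1 at day 3, and 1 lower at day 2. ATF4 targets had 1 of 22 higher and 1 lower at day 2 and 1 higher and 3 lower at day 3, and both day 2 calls, ASNS (45 and 117 CPM) and NUPR1, were lost without day 2 replicate 2. NUPR1 fell from 7.53 to 20.9 CPM to 2.46 and 1.8 CPM at day 3. Targets of p53 had 1 of 23 higher at day 2 (3 without day 2 replicate 2) and 3 higher and 1 lower at day 3, heat shock genes 1 of 14 lower at day 2 and 3 (21.4%) at day 3, and hypoxia genes 2 of 18 higher and 1 lower at day 2 and 5 (27.8%) higher at day 3. Of 39 cell cycle genes, 3 (7.69%) were higher and 2 lower at day 2 and 3 higher at day 3. The rises were CCND1, CCND2 and CDK6, their kinase partner (4.26 to 5.75 CPM in naive cells, 12.2 and 12.6 at day 2, 42.8 and 29.8 at day 3), while MKI67 (218 to 252, 202 and 226 and 258 and 217 CPM) and TOP2A, markers of cycling cells, were not called.

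**Figure D5:**
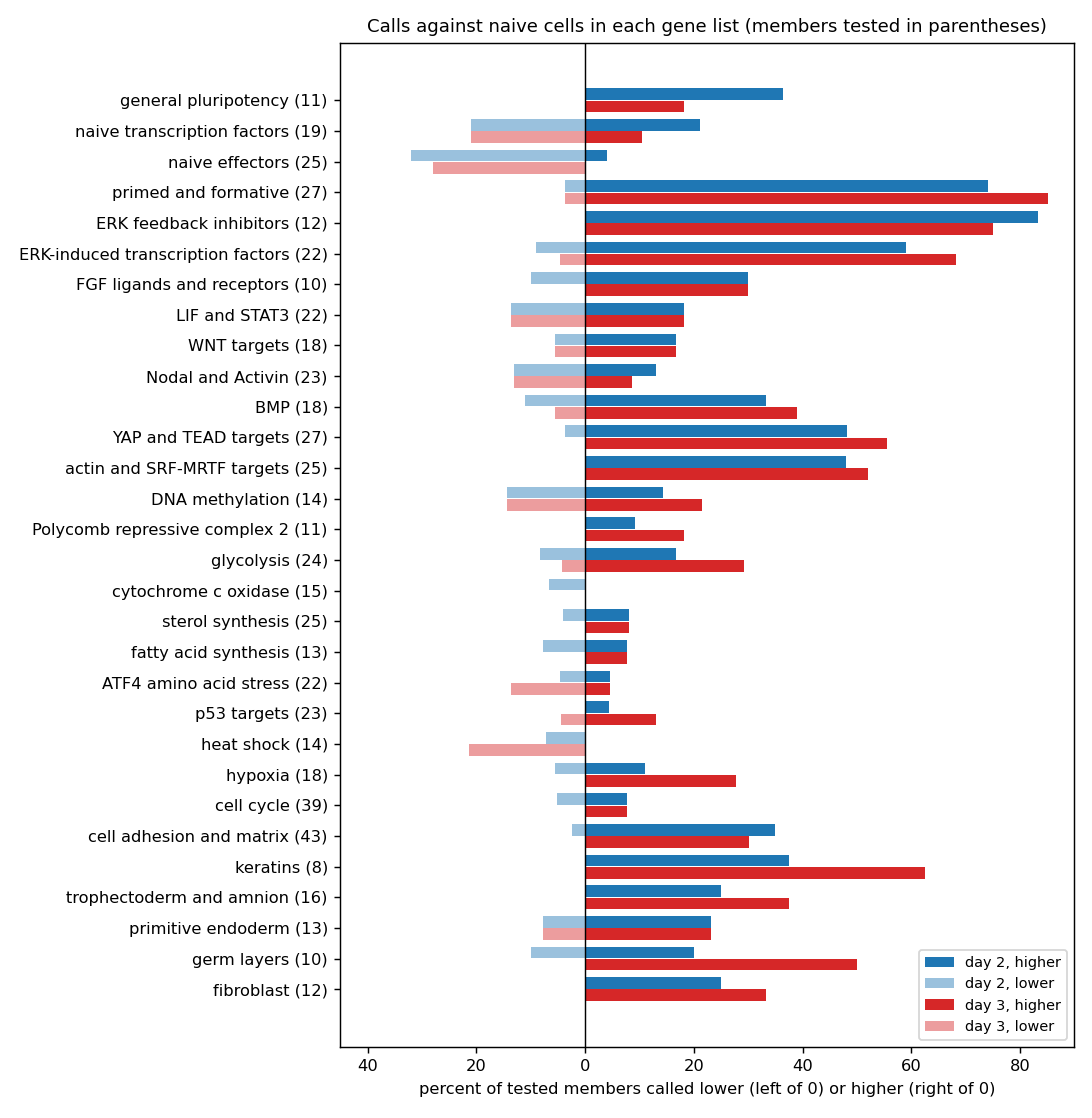
Percent of the tested members of each of the 30 gene lists called higher (right of 0) or lower (left of 0) than in naive cells at day 2 (blue) and day 3 (red), with the number tested in parentheses; over all genes tested the shares were 9.22% and 9.87% higher and 5.54% and 5.28% lower. The feedback inhibitors of ERK (10 of 12 higher at day 2) and the primed and formative markers (23 of 27 higher at day 3) have the longest bars.

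Markers of other cell types were mostly low in CPM and several were called higher. The sum of the trophectoderm markers GATA2, GATA3, CDX2 and KRT7 was 5.755 to 7.855 CPM in naive cells, 7.12 to 7.4 at day 2 and 22.2 to 27.8 at day 3, and GATA3 alone was called, at day 3 (24.9 and 18.8 CPM against 4.8 and 3.8 at day 2 and 1.77 to 4.94 in naive cells). Primitive endoderm markers (GATA4, SOX17, PDGFRA and FOXA2) summed to 0.902 to 3.32 CPM in naive cells and 5.80 to 6.64 CPM in N2B27. Of the 4, 2 were called higher on each day, GATA4 (0 to 0.885 CPM in naive cells, 2.2 and 4.51 at day 2, 2.21 and 3.4 at day 3) on both, PDGFRA at day 2 and FOXA2 at day 3. SOX17 was at or under the floor throughout. The fibroblast sum was 1.97 to 2.69 CPM in naive cells, 42.0 to 47.4 at day 2 and 75.05 to 86.3 at day 3, almost all of it COL1A2 (0.443 and 0.437 (serum coating) and 1.57 and 0.361 (Geltrex) CPM in naive cells, 44.2 and 36.3 at day 2, 68.2 and 77.3 at day 3). LUM was at 0 in all 8 libraries and COL3A1 at 0 in the 4 N2B27 libraries, COL1A1 was called on both days (1.11 to 1.62 CPM in naive cells, 3.2 and 4.51 at day 2, 5.66 and 7.41 at day 3) and POSTN at day 3. The part of other cell types in the changes above was not tested.

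The longer lists are given beside the shares over all genes, 9.22% and 9.87% higher and 5.54% and 5.28% lower at days 2 and 3. Of 16 trophectoderm and amnion genes 4 (25%) were higher at day 2 and 6 (37.5%) at day 3, with ABCG2 the most abundant. Primitive endoderm genes had 3 of 13 (23.1%) higher and 1 (7.69%) lower on each day, and the lower one at day 2, HNF4A, was not called without day 2 replicate 2. Of 10 germ layer genes 2 were higher and 1 lower at day 2 and 5 higher at day 3. TBXT, the mesoderm factor, read 0 and 0 (serum coating) and 0.224 and 0.541 (Geltrex) CPM in naive cells, 0.40 and 0.712 at day 2 and 2.46 and 6.21 at day 3, a ratio to naive cells of 21.6 at day 3 (95% counting interval 7.83 to 83.1). CXCR4, a chemokine receptor, read 0.664 to 1.53, 3.2 and 1.9 and 14.3 and 11.4 CPM. PAX6, a neural factor, read 0.361 to 1.12, 2.4 and 3.32 and 5.66 and 8.61 CPM. Among 12 fibroblast genes 3 were higher at day 2 and 4 at day 3.

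Between day 2 and day 3, 318 genes rose and 183 fell. The rule for naming took up to 5 genes in each direction among 150 called between the days with at least 20 CPM and no overlap. NRK, a kinase, read 0 and 0.437 (serum coating) and 0 and 0 (Geltrex) CPM in naive cells, 4.8 and 5.46 at day 2 and 32.2 and 30.6 at day 3 (log2 difference between the days 2.61 ± 0.24). SOX3, a neural and formative factor, read 0.885 and 0.655 (serum coating) and 1.57 and 1.26 (Geltrex) CPM in naive cells, 6.8 and 7.12 at day 2 and 28.3 and 39.6 at day 3 (2.29 ± 0.22). TOX2 read 12.8 and 13.3 (serum coating) and 10.8 and 15 (Geltrex) CPM in naive cells, 12 and 8.07 at day 2 and 47.2 and 33.6 at day 3 (1.98 ± 0.20). GATA3 (2.32 ± 0.29) and BMP4 (1.89 ± 0.19) complete the 5 and are given above. For TOX2, GATA3 and BMP4 the day 2 libraries were within or below the naive range, and the call against naive cells was made at day 3 alone.

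Of the 5 genes named as lower at day 3 than at day 2, 1 codes for a protein. LYST, a lysosomal trafficking gene, read 44.3 and 30.8 (serum coating) and 19.3 and 21.5 (Geltrex) CPM in naive cells, 25.6 and 37 at day 2 and 6.64 and 5.81 at day 3 (-2.33 ± 0.36). The other 4 were the mitochondrial pseudogenes MTATP8P2 and MTCO2P22, the ribosomal RNA gene RNA5-8SN2 and the small nucleolar RNA gene SNORD3B-2, which share sequence with other loci so that their counts are uncertain. MTATP8P2, the single gene called in opposite directions, read 14.2 and 6.11 (serum coating) and 4.04 and 5.95 (Geltrex) CPM in naive cells, 14.4 and 29.4 at day 2 and 1.48 and 3.6 at day 3. Its day 2 replicate 1 was level with naive replicate 1 on serum coating, and replicate 2 was the highest of the 8 libraries. MTCO2P22 read 18 and 49.6 at day 2 and 6.64 and 7.81 at day 3, and again replicate 2 of day 2 was the highest library. Pseudogenes were 27 of the 183 genes lower at day 3 (14.8%) and 976 of the 16674 tested (5.85%). Of the 501 calls between the days, 134 (26.7%) were made again without day 2 replicate 2.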

How the data were processed

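The authors made the raw gene counts they deposited from QuantSeq libraries with an nf-core RNA-seq workflow (Salmon 1.9.0, STAR 2.7.10a and FastQC 0.11.9, per the labels) on hg38. Those counts were used here as deposited, with groups from the sample labels. Whether replicates were separate cultures is described differently in different places of the study, so p-values measure only the spread between these libraries.

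One edgeR quasi-likelihood fit (edgeR 4.0.16, R 4.3.3) covered all 38 libraries in 18 levels, the 4 naive libraries of the first experiment being 1 level, with TMM scaling and filterByExpr. P-values were adjusted by Benjamini-Hochberg over all 16674 genes tested, and a call needed adjusted p under 0.05 and absolute log2 fold change above 1. Standard errors are the log2 fold change divided by the square root of F. The members of the 30 gene lists and the genes named were chosen with earlier results of these data known, so their choice supports nothing by itself.

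Genes named were list members, the 12 strongest rises and 12 strongest falls shared by both days (by the smaller of both changes), up to 5 in each direction between the days, genes called in opposite directions, and up to 6 in each direction furthest apart between the day 2 replicates, with a minimum of 20 CPM where the gene was higher and, for the rises, falls and day 3 against day 2, no overlap of the libraries compared. Unnamed clone-like symbols were counted only, and a few genes within the rule are not reported here. Of the list symbols 1 matched no gene. Where a group had 0 counts, a fold is a bound against 3 counts per library. Counting intervals are exact and, like the floor, cover counting error only. Gene positions are from GENCODE release 44 by symbol (36501 symbols matched and 910 through a RefSeq synonym), and promoters from RefSeq. Alternatives were other scalings, filters, controls and fold thresholds, DESeq2 1.42.0, a replicate block and each of the 8 libraries left out, and, chosen after seeing the data, the pseudogene share as a covariate and protein-coding genes only. Replicates with the same number did not deviate together (r of replicate differences -0.128 to 0.115).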

Additional observations from a re-analysis of the deposited data

Results flagged for a closer look

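For 36 genes whose levels are given, the direct test called day 3 different from day 2, so that both days gave different changes from the same naive level. Of these calls 19 were made again without day 2 replicate 2. Among them day 3 was the higher day for TBXT (log2 difference 2.98), NRK (2.61), GATA3 (2.32), SOX3 (2.29), CXCR4 (2.28), TOX2 (1.98), BMP4 (1.89), PFKFB3 (1.83), LEFTY2 (1.79), FGF19 (1.69), SOX11 (1.64), CCND1 (1.55), CDK6 (1.54), CCND2 (1.41) and PTPRZ1 (1.31). Day 3 was the lower day for MTATP8P2 (-3.04), LYST (-2.33), EGR1 (-1.47) and SFRP1 (-1.02). Of these, TBXT was not called without day 3 replicate 2 (2.13), nor SFRP1 without day 2 replicate 1 (-0.89) or without day 3 replicate 1 (-0.74).

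The other 17 genes were not called without day 2 replicate 2, which also leaves 1 library fewer in the test. Day 3 was the higher day for VIM (1.66), PAX6 (1.34), LEFTY1 (1.21), ID2 (1.18), SOCS3 (1.16), JUNB (1.12), SRF (1.10), CYR61 (1.07), ZIC2 (1.04) and KLF17 (1.03). It was the lower day for TMIGD1 (-4.01), MTCO2P22 (-2.20), RPL22P16 (-1.95), RNASEK (-1.76), NUPR1 (-1.68), POU5F1 (-1.15) and FAM151A (-1.13). Without that library the difference was as large or nearly so for PAX6 (1.56), NUPR1 (-1.77), FAM151A (-1.11) and JUNB (1.03). It was far smaller for RNASEK (-0.21), POU5F1 (-0.50) and RPL22P16 (-0.80). It was also under the fold threshold of 1 for ID2 (0.95), LEFTY1 (0.95), SOCS3 (0.93), SRF (0.89), CYR61 (0.84), KLF17 (0.81) and ZIC2 (0.81). JUNB and NUPR1 were also not called without any other single library of either day. In a fit of the 8 libraries alone 18 of the 36 calls were lost, without day 3 replicate 2 14, without day 3 replicate 1 8 and without day 2 replicate 1 4.

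Among 55 genes given with a log2 fold change or in the lists above, and with at least 1 CPM in naive cells, 3 had a naive library outlying by Dixon's test over the 4 naive libraries, where chance gives about 1 in 20. All 3 were high in naive replicate 1 on serum coating, which read 560.4 CPM of POU5F1 (363 to 389.5 in the others), 17.04 CPM of MTCO2P22 (6.50 to 8.08) and 3.98 CPM of TMIGD1 (0 to 0.218).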

How the results depend on the processing

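The counts of genes called against naive cells stayed within 1.5 times the reported ones in every alternative except the fold thresholds. With no fold threshold 5887 genes were called at day 2 (3160 higher, 2727 lower), 5629 at day 3 (3084 and 2545) and 1566 between the days (928 and 638), with 3565 in the same direction at both days (1958 and 1607) and 27 in opposite directions. With an absolute log2 fold change above 2 the counts were 868 at day 2 (633 and 235), 1049 at day 3 (826 and 223), 96 between the days (63 and 33), 596 in the same direction (482 and 114) and 0 in opposite directions. Genes called in the same direction numbered 1363 with DESeq2 (1344 of them among the 1507), 1253 in a fit of the 8 libraries (1245), 1399 with the pseudogene share as a covariate (1324) and 1308 among protein-coding genes (1282), the last 2 chosen after seeing the data. With each library left out in turn they numbered 1326 to 1561. The lone library left on a day is then assumed to vary like the other groups.

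The comparison between the days depended most on single libraries. With each library left out in turn it gave 171 to 808 calls, 121 to 375 higher and 50 to 433 lower. Without day 2 replicate 2 there were 171 (121 higher, 50 lower), without day 2 replicate 1 808 (433 lower), without day 3 replicate 1 288 (204 and 84), and without day 3 replicate 2 297 were lower. Of the 501 calls, 134 were made again without day 2 replicate 2. It gave 99 calls (67 and 32) in the fit of 8 libraries, 327 (209 and 118) with the pseudogene covariate, 368 with DESeq2, and 277 lower without a filter, and the cause was not tested. The 1 gene called in opposite directions became 0 with RLE scaling, with more than 10 counts in 2 libraries, in 8 libraries, against naive cells on Geltrex, with coatings as separate levels, with 6 naive libraries, with the covariate and in protein-coding genes. It became 2 with plain totals, without a filter and against naive cells on serum coating, 0 to 3 with a library left out, and 0 or 9 with separate controls.

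With the replicate number as a block 2457 genes were called at day 2, 2518 at day 3, 495 between the days and 1502 in the same direction. The block changed none of these counts by over 1.5 times, and the numbers are shared by label only. Of 2760 counts of list members called under an alternative, 274 moved by over 1.5 times, and 906 of 1260 list medians stayed within the spread between replicates while the others did not. For the genes given with a log2 fold change or called between the days, 2012 of 2143 values under an alternative kept their direction and call, 130 lost the call, 1 gained it and 0 changed direction. Of the 1426 values against naive cells among them, 1405 were kept and 20 lost the call. Most of the lost calls were thus between the days. With 3 counts worth 0.541 to 0.738 CPM, changes of genes under about 1 CPM were not resolved.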
